A study of Mus musculus with 4 samples.

Results

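Distal accessible chromatin regions that were called only after knockdown of the ETS transcription factors Etv4 and Etv5 were examined in EpRas cells. They were found by merging the autosomal FAIRE-positive regions of both siEtv4/5 libraries where they overlapped by at least 1 bp, keeping those whose middle lay more than 2 kb from any annotated transcription start site (TSS), and leaving out every region that overlapped a FAIRE-positive region of either siControl library. This gave 2274 of 15603 distal siEtv4/5 regions, or 14.6%, and the distal autosomal regions of all 4 libraries merged to 23844. The members were therefore chosen by the calls themselves, so that their number and strength are a description and not a test. EpRas is a mouse mammary gland epithelial line that expresses active H-Ras. The siControl untreated cells received a control siRNA and no TGF-β, the siControl TGF-β cells received the same control siRNA and TGF-β3 at 1 ng/ml, and the siEtv4/5 set 1 and siEtv4/5 set 2 cells received separate pairs of siRNAs against Etv4 and Etv5 together with the same TGF-β3. All cells were collected at day 4. An untreated siEtv4/5 group was not analysed here, so that the effect of knockdown could be looked at only in the presence of TGF-β. Each group was represented by 1 list of regions with no replicate list, the knockdown itself could not be checked in DNA data, and no p-value was computed.

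FAIRE recovers the DNA that is not held by nucleosomes after formaldehyde fixation, so that enhancers, promoters and insulators stand out from the rest of the genome. ETS factors bind a GGAA core, and Etv4 and Etv5 belong to the PEA3 subfamily, which acts downstream of Ras-ERK signalling. At epithelial enhancers they are commonly found beside AP-1, the dimer of Fos and Jun proteins that binds TGAGTCA, and beside RUNX and TEAD factors. CTCF is of another kind, a zinc finger protein that binds insulators and the anchors of chromatin loops in most cell types.

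The called sequence of 10 members is shown here. These regions were among those with the highest fold enrichment of their group (for members of both sets, by the lower of their values). They are not a fair sample of the members, since most of them held CTCF with up to 1 mismatch. Among the 24 strongest regions of their groups, 10 held it and 9 held no match to the motifs marked here. Fold enrichment is the number of fragments over the summit plus 1, divided by the local background plus 1. Capitals mark matches on either strand to AP-1 (TGAGTCA), ETS (AGGAAGT or CGGAAGT), RUNX (TGTGGTT), TEAD (ACATTCC) or CTCF with up to 1 mismatch. The reference sequence is RefSeq GRCm38.p6, which has the coordinates of mm10, and the plus strand is given. The first group was called with both siRNA sets, and each region is named by the protein-coding gene with the nearest TSS.
Ankmy1: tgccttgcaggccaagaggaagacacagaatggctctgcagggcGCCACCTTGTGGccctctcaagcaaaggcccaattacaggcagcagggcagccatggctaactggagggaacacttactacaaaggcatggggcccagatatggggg
Rabgap1l: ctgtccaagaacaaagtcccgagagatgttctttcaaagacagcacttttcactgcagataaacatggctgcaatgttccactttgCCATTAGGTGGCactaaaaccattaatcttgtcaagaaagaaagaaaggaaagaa
Pibf1: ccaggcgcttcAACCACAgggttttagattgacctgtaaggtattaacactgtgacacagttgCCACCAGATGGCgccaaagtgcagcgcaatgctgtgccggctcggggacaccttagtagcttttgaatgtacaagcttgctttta
Slc35f5: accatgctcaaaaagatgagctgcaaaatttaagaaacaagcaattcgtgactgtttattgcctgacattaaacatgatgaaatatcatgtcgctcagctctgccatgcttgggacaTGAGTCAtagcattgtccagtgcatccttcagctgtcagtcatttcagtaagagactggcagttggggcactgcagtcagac
Asb18: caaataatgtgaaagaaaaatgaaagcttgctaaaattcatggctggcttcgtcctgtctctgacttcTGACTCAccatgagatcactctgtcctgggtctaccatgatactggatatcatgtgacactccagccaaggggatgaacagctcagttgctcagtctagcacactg
Ktn1: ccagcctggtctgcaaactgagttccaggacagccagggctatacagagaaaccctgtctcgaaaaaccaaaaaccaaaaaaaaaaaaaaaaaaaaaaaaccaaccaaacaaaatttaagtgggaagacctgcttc
The Ankmy1 (chr1:92895219-92895369) and Rabgap1l (chr1:160743388-160743528) regions lay in introns of those genes and held a CTCF match with 1 mismatch. The Pibf1 region (chr14:99142374-99142521), also intronic, held an exact CTCF match and a RUNX match. The intergenic Slc35f5 region (chr1:125615854-125616052) and the Asb18 region (chr1:90010164-90010337), in an intron, each held AP-1. The Ktn1 region (chr14:47629480-47629615) was intergenic and had no match. It held a run of 24 identical bases, and 86.0% of it was masked as repeat in the reference.

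The second group of sequences was called with 1 siRNA set only, the first pair with set 1 and the last pair with set 2.
Ckb: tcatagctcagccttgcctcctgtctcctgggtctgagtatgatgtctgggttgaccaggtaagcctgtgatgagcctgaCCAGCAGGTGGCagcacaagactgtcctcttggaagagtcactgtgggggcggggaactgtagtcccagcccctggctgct
Kifc5b: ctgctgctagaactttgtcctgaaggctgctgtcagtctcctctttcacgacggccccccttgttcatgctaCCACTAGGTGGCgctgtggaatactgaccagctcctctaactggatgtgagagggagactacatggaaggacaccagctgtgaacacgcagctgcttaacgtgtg
Gm10181: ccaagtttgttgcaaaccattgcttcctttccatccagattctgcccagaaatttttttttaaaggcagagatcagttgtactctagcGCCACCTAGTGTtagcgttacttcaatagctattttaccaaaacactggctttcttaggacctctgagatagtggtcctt
Topaz1: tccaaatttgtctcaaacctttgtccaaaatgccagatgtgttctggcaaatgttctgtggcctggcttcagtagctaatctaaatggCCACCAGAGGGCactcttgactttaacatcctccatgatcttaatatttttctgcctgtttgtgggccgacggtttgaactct
The Ckb region (chr12:111668450-111668610) was intergenic and lay 3.81 kb from the TSS of Ckb, the gene for brain-type creatine kinase. The Kifc5b region (chr17:26895668-26895844) lay in an intron of Gm20468. The Gm10181 (chr9:25041753-25041920) and Topaz1 (chr9:122736838-122737008) regions were intergenic. All 4 held a CTCF match, with 1 mismatch in the Gm10181 region.

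Of the 2274 members, 1598 were called with set 1 only, 470 with set 2 only and 206 with both sets. In the set 1 list, 1804 of 14026 distal regions were members (12.9%), and in the set 2 list 676 of 8549 (7.91%). The 206 regions of both sets were 11.4% of the set 1 members (95% Wilson interval 10.0 to 13.0) and 30.5% of the set 2 members (27.1 to 34.0). Wilson intervals here and below cover counting error only, not the variation between cultures. Distal regions that a control library also called were shared more often between the sets, 55.4% of those in the set 1 list and 85.9% of those in the set 2 list. These regions were chosen by a call in a further library. They were also stronger, with a median of 22 fragments in set 1 and 21 in set 2, against 18 and 19 for members. The contrast in sharing is therefore a description and not a test. Counted the other way, 8286 of 21604 distal control regions (38.4%) overlapped no siEtv4/5 region. Of these, 2046 were called in the untreated control only, 4545 in the TGF-β control only and 1695 in both, the last being 45.3% of the untreated and 27.2% of the TGF-β regions of this kind. With the full lists, the regions called only after knockdown were thus the smaller of both classes. These shares rest on lists of unequal length, which held 22247 (siControl untreated), 28754 (siControl TGF-β), 22516 (set 1) and 14925 (set 2) regions at an estimated depth of 15.3, 16.3, 17.3 and 20.7 M reads. With the 14925 most significant regions of every library, 3676 of 11774 distal siEtv4/5 regions were members, or 31.2%, against 14.6% with the full lists. Of the 3676, 658 were called with both sets, and 1188 overlapped a member found with the full lists. The share counted the other way was not computed with lists of equal length, so the order of both classes is known for the full lists only.

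The members were weak. With set 1 they had a median of 18 fragments at the summit and a median fold enrichment of 7.15 (n = 1804), against 25 fragments and 8.34 for the 5518 distal regions called in all 4 libraries. With set 2 the values were 19 fragments and 6.85 (n = 676), against 22 fragments and 7.14. They were also narrow, with a median width of 147 bp in set 1 and 136 bp in set 2, against 229 and 191 bp. The local background was at the genome-wide floor in 29.3% of the set 1 members and 23.1% of the set 2 members, against 6.34% and 5.67% of the regions called in all 4 libraries. At least 25 fragments were reached by 106 set 1 members (5.88%) and 41 set 2 members (6.07%), against 55.7% and 34.7% of the regions called in all 4 libraries. The lowest summit called anywhere was 10 fragments in the untreated control, 11 in the TGF-β control, 11 in set 1 and 12 in set 2.

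**Figure D1:**
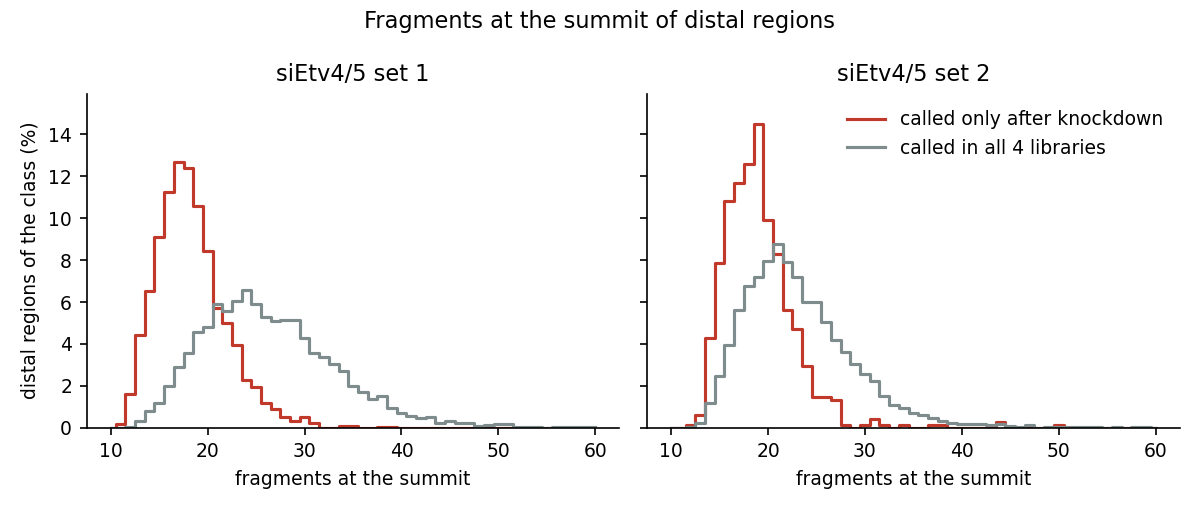
Fragments at the summit (x axis) against the percentage of distal regions of the class (y axis), with siEtv4/5 set 1 on the left and set 2 on the right. Red lines are regions called only after knockdown and grey lines are regions called in all 4 libraries. The red lines sit to the left, with medians of 18 and 19 fragments, against 25 and 22 for the grey lines.

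Members made up a smaller share of the stronger regions. In set 1, it was 33.1% of 694 distal regions with at most 14 fragments, 18.04% of 3143 with 18 to 20, 3.48% of 2499 with 25 to 29, and 0 of 278 with 40 or more (up to 1.36%). In set 2 it was 15.7% of 216 regions with at most 14 fragments and 1.23% of 648 with 30 to 39, but 3 of 116 with 40 or more. Members were therefore more common toward the limit of what was called, and the regions called only in the controls were like them, with a median of 17 fragments in the untreated and 19 in the TGF-β control. At the border of the rule, the members closest to a control region were 8, 8, 15, 22 and 24 bp away. Among regions left out, the smallest values past the border of a control region were 3, 4, 10, 11 and 21 bp. The latter were measured from the start of the region only, so smaller overlaps at its end may have been missed. The member closest to a TSS was 2009 bp away, and the farthest region left out for its TSS was 1996 bp away. The lowest significance among members, taken as the higher of the values in both sets, was a -log10 q of 4.86. By distance, most members were not border cases, since 1253 lay more than 10 kb from any control region, 245 within 1 kb and 75 within 250 bp. The control signal at the members was not measured, so the distance does not show how near to a call they were in the controls.

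The 206 members of both sets had nearly the same median strength as the rest. Their median fold enrichment was 7.23 with set 1 and 6.87 with set 2, against 7.15 for the members of set 1 only and 6.84 for those of set 2 only, and the lower of both values had a median of 6.58, with a lowest value of 4.20 and a highest of 9.66. Strong summits were more frequent among them, since 10.2% had 25 or more fragments in set 1 and 7.77% in set 2, against 5.32% of the members of set 1 only and 5.32% of those of set 2 only. Fold enrichment was higher with set 1 in 124 of them. Only 24 reached 8 or more with both sets. Their summits lay a median of 24 bp apart between the sets, and 81.6% (75.7 to 86.3) lay within 50 bp, against a median of 32 bp and 69.2% (68.0 to 70.4) for the wider regions called in all 4 libraries.

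Ranked by the lower of their values, the 12 strongest members of both sets had between 8.49 and 10.3 fold enrichment with set 1 and between 8.57 and 9.66 with set 2. Single values of other members of both sets went up to 11.6 with set 1 and 12.1 with set 2. The Ktn1 region, 18.9 kb upstream of the gene for the kinesin-anchoring protein kinectin, had 9.68 with set 1 (21 fragments) and 9.66 with set 2 (22 fragments). The Efnb2 region (chr8:8318324-8318542) had 9.83 and 9.66. Efnb2 encodes the membrane ligand ephrin-B2, but the region was 343 kb from its TSS in an intron of Gm31135. The Ankmy1 region, 7.61 kb inside the gene, had 10.3 and 9.53, each with 22 fragments. The Vmn2r1 region (chr3:64047197-64047333), near a gene for a vomeronasal receptor, had 10.3 and 9.24. In these 4 regions the values of both sets differed by at most 1 fragment.

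The Rabgap1l region had 8.94 fold enrichment with set 1 (24 fragments) and 9.55 with set 2 (23 fragments). The Slc35f5 region, 54.9 kb downstream of the TSS of a solute carrier gene, had 10.3 and 8.82. The Sulf2 region (chr2:166237617-166237783) had 9.57 and 8.67, with 26 fragments in each set. Sulf2 encodes an extracellular sulfatase that trims heparan sulfate. The Disp1 region (chr1:183238076-183238221), 16.7 kb upstream of a gene needed to release Hedgehog ligands, had 9.83 and 8.57. The Il9r region (chr11:32182623-32182773) had 8.94 and 8.82, the Asb18 region 8.75 and 8.82, the Pibf1 region 8.49 and 8.84, and the Cdca7 region (chr2:72516502-72516663), near a gene controlled by Myc, 8.49 and 8.82. Among these 12 regions, 3 (Ktn1, Efnb2 and Vmn2r1) were more than 80% masked as repeat, which for short reads makes their position less certain.

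The members of 1 set alone were ranked by their only value, so that their order is not comparable with that of the members of both sets. With set 1, the B3gnt4 region (chr5:123499852-123500012), in an intron of Lrrc43, had a fold enrichment of 11.6 (25 fragments), and the nearest control region lay 24.1 kb away. The Cenpf (chr1:189566544-189566759), Ckb and Kifc5b regions had 11.2 each, with 24 fragments. With set 2, the Gm10181 region had 12.6 (32 fragments) and lay 1.16 kb from a control region. The Rapgef2 (chr3:78948339-78948502) and Topaz1 regions had 10.1 each, the Rgs6 region (chr12:82470688-82470852) had 9.78, and the Rhbdl3 (chr11:80287280-80287424) and Rnft1 (chr11:86464428-86464570) regions had 9.66 each. The Rgs6 region was 0.417 kb from a control region.

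Within the called sequence of the 24 strongest regions of these groups, 10 held CTCF with up to 1 mismatch, 5 held AP-1 and 9 held none of the searched motifs marked above. Among the 12 of both sets the counts were 4, 2 and 6. RUNX was found in 1 region, beside CTCF, and ETS and TEAD in 0 of the 24.

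Over all members, AP-1 was less frequent and CTCF more frequent than in the other distal siEtv4/5 regions, while ETS was slightly less frequent. In the 500 bp around the middle of the region, AP-1 was found in 862 of 2274 members, or 37.9% (35.9 to 39.9), against 53.0% (52.1 to 53.8) of the 13329 other distal siEtv4/5 regions, 59.4% of the regions called in all 4 libraries and 8.14% of the members' own flanks at 5 kb on each side. The exact CTCF consensus was found in 230 members, or 10.1% (8.94 to 11.4), against 6.33% (5.93 to 6.76), 4.66% and 0.528%. With up to 1 mismatch, a setting chosen after the sequences of the strongest members were seen, CTCF was found in 642 members, or 28.2% (26.4 to 30.1), against 17.6% (17.0 to 18.3), 13.39% and 5.85%. ETS was found in 17.2% of members (15.7 to 18.8), against 20.0% (19.4 to 20.7), 21.6% and 12.5%. The intervals of members and other distal siEtv4/5 regions did not meet for AP-1, CTCF or ETS.

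**Figure D2:**
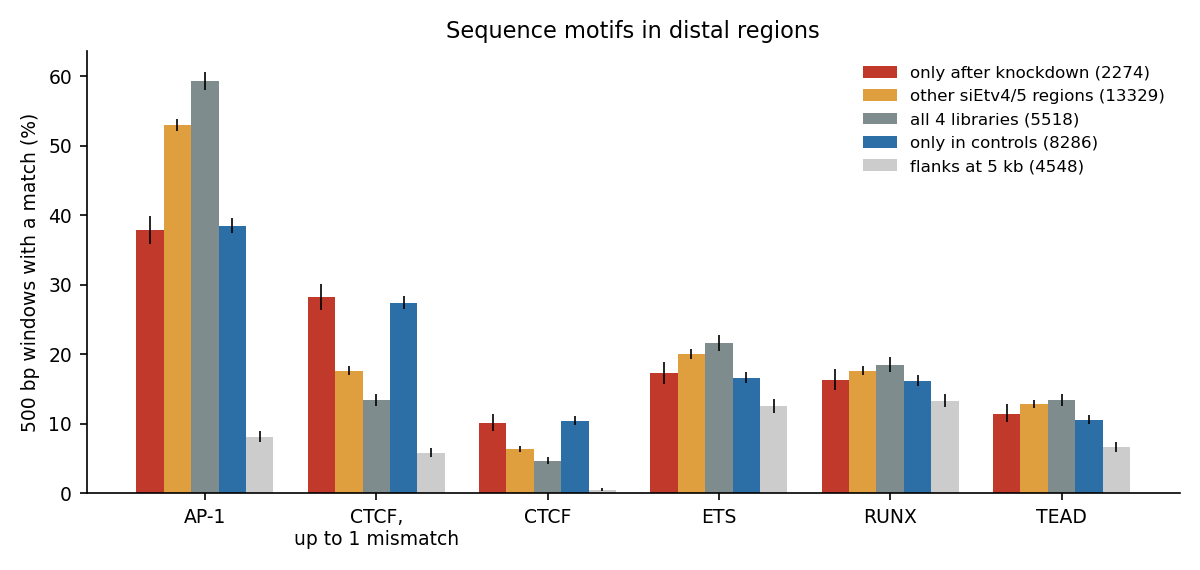
Percentage of 500 bp windows with at least 1 match to each motif (y axis), with 95% Wilson intervals as error bars and the number of windows in the legend. Regions called only after knockdown (red) and regions called only in the controls (blue) had AP-1 in 37.9% and 38.5%, and CTCF with up to 1 mismatch in 28.2% and 27.4%, while the other classes of regions lay higher for AP-1 and lower for CTCF.

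The regions called only in the controls had nearly the same makeup. AP-1 was found in 38.5% (37.5 to 39.6) of them, CTCF in 10.4% (9.75 to 11.1) and ETS in 16.6% (15.8 to 17.4), and all of these intervals overlapped those of the members. The makeup differed between the libraries, however. AP-1 was found in 40.1% of the set 1 only members and 29.8% of the set 2 only members, and in 47.0% of the regions of the TGF-β control only against 21.7% of those of the untreated control only. CTCF, exact, was found in 9.95% of the set 1 only and 12.8% of the set 2 only members, and in 5.83% and 17.99% of the TGF-β only and untreated only regions. The members of both sets had AP-1 in 39.3% (32.9 to 46.1), ETS in 19.4% (14.6 to 25.4) and exact CTCF in 5.34% (3.01 to 9.31), or 11 regions. With up to 1 mismatch, CTCF was found in 24.3% (18.9 to 30.6) of them. In the other distal siEtv4/5 regions, CTCF was at 6.33% (exact) and 17.6% (up to 1 mismatch).

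Motif content varied with the strength of a region, which was also part of how members differed from the rest. The regions called in all 4 libraries were therefore weighted to the number of summit fragments of the members. Fold enrichment and local background were not matched. The median background was 1.17 times the floor in set 1 members and 1.27 times in set 2 members. It was 1.69 and 1.61 times in the unweighted regions called in all 4 libraries. With set 1, AP-1 was then at 40.02% in members (37.8 to 42.3) against 52.8% in the weighted regions, ETS at 16.5% (14.9 to 18.3) against 20.3%, and exact CTCF at 9.42% (8.16 to 10.9) against 9.58%. With up to 1 mismatch, CTCF was at 26.7% (24.7 to 28.8) against 22.1%. With set 2, AP-1 was at 32.7% (29.3 to 36.3) against 58.3%, ETS at 19.8% (17.0 to 23.0) against 20.4%, and exact CTCF at 10.5% (8.41 to 13.0) against 5.68%. With up to 1 mismatch, CTCF was at 31.1% (27.7 to 34.7) against 15.43%. The weighted shares have a counting error of their own, that of about 1229 regions with set 1 and 3067 with set 2, and no interval was computed for it. By the members' intervals alone, the lower share of AP-1 was seen with both sets. The lower share of ETS was seen with set 1 but not with set 2, and the higher share of exact CTCF with set 2 but not with set 1. With up to 1 mismatch, CTCF was higher in members with both sets.

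The motifs were denser at the summits of the members than farther out, most of all CTCF and AP-1. Within 50 bp of the summit, members held 2.84 AP-1 matches per kb, against 0.247 per kb beyond 250 bp, a ratio of 11.5. For CTCF with up to 1 mismatch the densities were 2.58 and 0.101 per kb, a ratio of 25.5, and for ETS they were 0.651 and 0.281 per kb, a ratio of 2.31. In the regions called in all 4 libraries, the corresponding ratios were 22.6, 7.49 and 2.42. AP-1 was thus less dense and CTCF denser at the summits of members, and the ETS densities within 50 bp, 0.651 and 0.723 per kb, were close. TEAD had a ratio of 2.89 and RUNX of 2.40 in members.

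**Figure D3:**
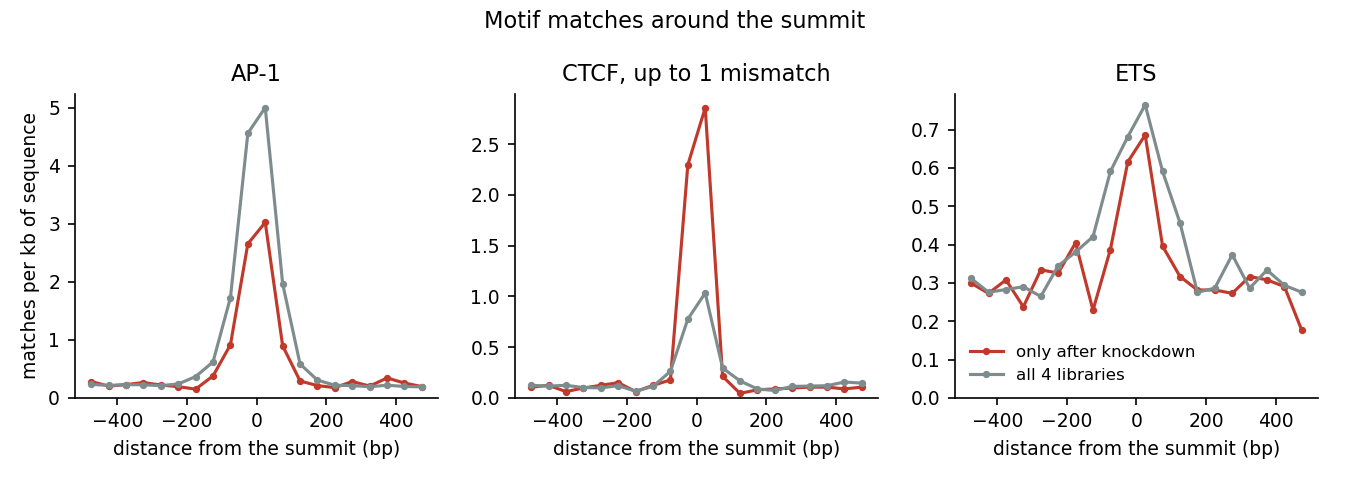
Matches per kb of sequence (y axis) in bins of 50 bp by distance from the summit (x axis), for AP-1, CTCF with up to 1 mismatch and ETS, with a y axis of its own for each motif. Regions called only after knockdown are red and regions called in all 4 libraries are grey. CTCF within 50 bp of the summit was at 2.58 matches per kb in red and 0.904 in grey, and AP-1 at 2.84 in red and 4.78 in grey.

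The members of highest fold enrichment were the richest in CTCF. Split into 4 bins of equal size by the higher of the fold enrichments in both sets, CTCF with up to 1 mismatch was found in 12.3% (9.85 to 15.3) of the lowest bin, 18.5% and 31.5% of the next ones, and 50.6% (46.5 to 54.7) of the highest, from 8.04 to 12.6. AP-1 went the other way, from 44.1% (40.1 to 48.2) of the lowest to 27.1% (23.6 to 30.9) of the highest bin. ETS was at 18.3% (15.3 to 21.7) and 14.6% (11.9 to 17.7). The local background moved with these shares, with a median of 1.69 times the genome-wide floor in the lowest bin and at the floor in the highest, while the median summit was 17 fragments in the lowest and 20 in the highest. The regions called only in the controls showed the same, with CTCF in 10.0% of the lowest and 46.0% of the highest bin. In the other distal siEtv4/5 regions it was 8.76% and 21.1%, and AP-1 51.5% and 56.3%. The part of the background in these shares was not tested.

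**Figure D4:**
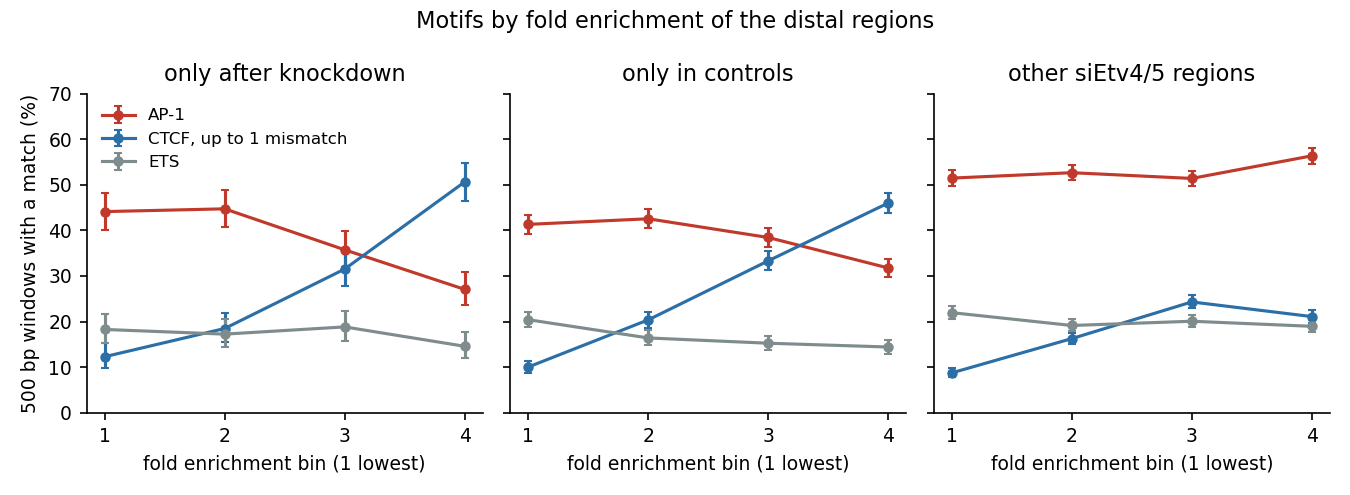
Percentage of 500 bp windows with a match (y axis) in 4 bins of regions ordered by fold enrichment (x axis, 1 is the lowest), with 95% Wilson intervals as error bars. CTCF with up to 1 mismatch (blue) went from 12.3% to 50.6% in regions called only after knockdown and from 10.0% to 46.0% in regions called only in the controls, and AP-1 (red) was lower in the highest bin of both, whereas it was at 51.5% and 56.3% in the lowest and highest bins of the other siEtv4/5 regions.

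AP-1 and CTCF rarely shared a region, in members as in the other classes. Both were found in 84 members (3.69%) when 1 mismatch in CTCF was allowed, and CTCF without AP-1 in 558 (24.5%). In the other distal siEtv4/5 regions these shares were 3.796% and 13.81%, and in the regions called only in the controls 3.61% and 23.82%. None of AP-1, ETS, RUNX, TEAD and CTCF with up to 1 mismatch was found in 473 members, or 20.8% (19.2 to 22.5). This share was 17.04% in the other distal siEtv4/5 regions and 21.25% in the regions called only in the controls. RUNX was found in 16.3% of members (14.9 to 17.9) and 17.6% of the other distal siEtv4/5 regions, and TEAD in 11.4% (10.2 to 12.8) and 12.9%, with intervals that overlapped those of the other regions. In the members of both sets TEAD was at 17.96% (13.3 to 23.8). C/EBP (TTGCNNAA) was found in 21.7% of members and 22.0% of the others, the E-box of ZEB and SNAIL factors (CACCTG) in 30.0% and 30.8%, the Smad-binding CAGA box (AGCCAGAC) in 3.12% and 3.47%, and the motif of the epithelial GRHL factors (AACCNGTT) in 4.40% and 3.87%. The motif of GATA factors, AGATAA, was at 23.9% and 21.9%, below the 26.7% of the flanks. KLF/SP (GGGCGG) was at 10.3% and 11.5%, FOX (TGTTTAC) at 7.43% and 7.86%, STAT (TTCCNNGAA) at 9.28% and 9.57%, IRF at 7.52% and 6.69%, and NF-kB at 7.65% and 8.28%. NF1 was found in 3 members and the longer ETS consensus CCGGAAGT in 19. Both strands were searched, and a match was counted as such, not as a site that is bound.

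The members lay in the same parts of genes as other distal regions. Their middle was in an exon in 3.47%, in an intron in 49.03% and between genes in 47.5%, against 3.16%, 48.9% and 47.9% of the other distal siEtv4/5 regions. The median distance to the nearest protein-coding TSS was 31.5 kb, against 29.9 kb for the other distal siEtv4/5 regions and 31.1 kb for the regions called only in the controls. A distal region called in all 4 libraries was within 10 kb of 13.9% (12.5 to 15.38) of the members and 13.6% (12.9 to 14.3) of the regions called only in the controls. The median GC content was 45.6%, against 46.6% for the other distal siEtv4/5 regions and 44.6% for the flanks. At least 50% of the 500 bp window was masked as repeat in 70 members, or 3.08% (2.44 to 3.87), against 1.49% (1.30 to 1.71) of the other distal siEtv4/5 regions and 18.2% of the flanks.

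The share of members differed between chromosomes. It was lowest on chromosome 4, with 101 of 943 distal siEtv4/5 regions (10.7%), and highest on chromosome 14, with 104 of 428, or 24.3% (20.5 to 28.6). Chromosome 14 also had the fewest distal siEtv4/5 regions per megabase of all autosomes, 3.43, and the lowest local background in its other regions, 1.31 times the floor in set 1 and 1.27 times in the TGF-β control. The regions called in all 4 libraries had a median of 23 fragments there in both the set 1 and the TGF-β control library, whereas the median was higher in the TGF-β control on every other autosome (on chromosome 4, 31 against 25). Without chromosome 14, 2170 members remained, 193 of them called with both sets. The part of the lower background and signal in this share was not tested.

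**Figure D5:**
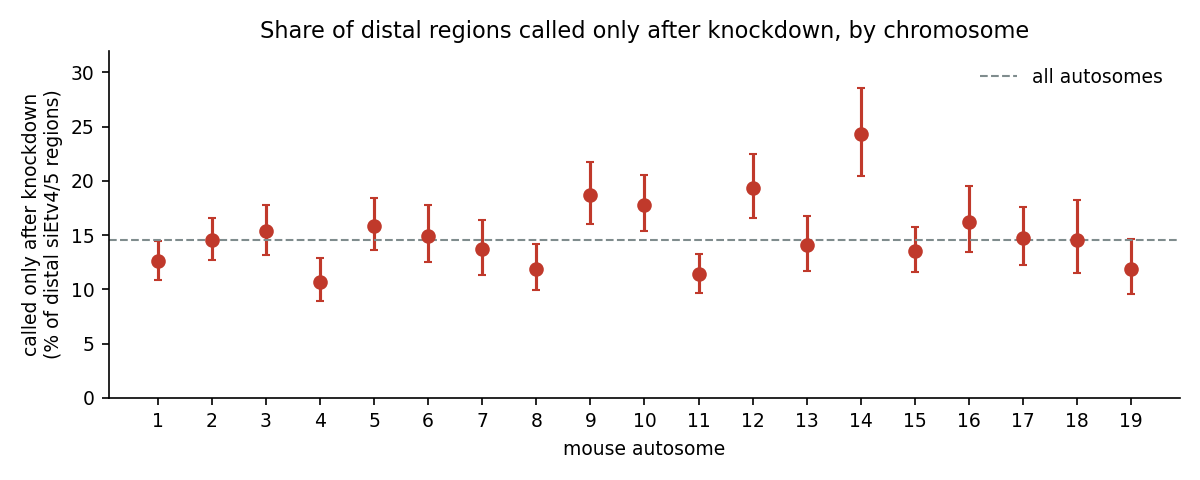
Percentage of distal siEtv4/5 regions that were called only after knockdown (y axis) on each mouse autosome (x axis), with 95% Wilson intervals as error bars and a dashed line at the value over all autosomes, 14.6%. Chromosome 14 stood highest at 24.3%, and chromosome 4 lowest at 10.7%.

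The members were spread thinly over genes. They lay nearest to 1925 protein-coding genes, and 1640 of these had 1 member. The most at 1 gene was 5, which was reached by 4 genes named here for that count, after their values were seen. Arntl, which encodes the core clock factor BMAL1, had 5 of its 9 distal siEtv4/5 regions among the members, all called with set 1 only. Ubash3b, a gene for a tyrosine phosphatase that acts on receptor signalling, had 5 of 12, and Tbl1xr1, a gene for a subunit of the NCoR corepressor complex, 5 of 17. Myc had 5 of 37, on a chromosome that also had the most distal siEtv4/5 regions per megabase, 10.1. Myc, Tbl1xr1 and Ubash3b each had 1 member that was called with both sets.

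Gene lists of the pathways at work in these cells took few members. Over the 14 lists, 93 of 813 distal siEtv4/5 regions were members, or 11.4% (9.43 to 13.8), against the 14.6% of all distal siEtv4/5 regions. For the genes of ETS factors, 8 of 48 regions were members (16.7%), nearest to Elf1, Ets1, Ets2 and Etv3, and none lay nearest to Etv4 or Etv5. The strongest was called with both sets in an intron of Gm32171 (chr9:33247071-33247234), with a fold enrichment of 6.998 and 8.42, at 551 kb from the TSS of Ets1. For the transcription factors of the epithelial-mesenchymal transition, 10 of 54 were members (18.5%), at Klf4, Prrx1, Snai1, Sox4, Tcf3, Tcf4, Twist1 and Zeb1. The strongest lay 27.9 kb upstream of Tcf3, the gene for the E proteins E12 and E47, with 10.4 in set 1.

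For epithelial junction and identity genes, 13 of 76 were members (17.1%), among them regions at Cldn4, Krt8, Grhl1 and Tjp1. The strongest was 17.7 kb upstream of Cgn, the gene for the tight junction protein cingulin, with 9.13 in set 1. For mesenchymal and matrix genes the count was 12 of 109 (11.01%), with the strongest at Col4a1 in an intron of Col4a2, a basement membrane collagen, at 8.41 in set 1. The regions of matrix proteases and their inhibitors had the smallest share among lists with 50 or more regions, 4 of 60 (6.67%, 2.62 to 15.9), at Adam10, Adamts5, Mmp16 and Plau. For integrins and laminins the count was 5 of 58 (8.62%), and 2 of the 5 were called with both sets.

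In the TGF-β pathway, 10 of 110 regions were members (9.09%, 5.01 to 15.9), at Bmpr2, Ltbp1, Pmepa1, Smad3, Tgfb2, Tgfb3, Tgfbr2, Tgfbr3 and Tgif1, and 0 of them were called with both sets. The strongest, 190 kb from the TSS of the ligand gene Tgfb2, had 7.90 in set 2. In the Ras-ERK pathway, 7 of 63 were members (11.1%), and the strongest was called with both sets 160 kb from Dusp6 (chr10:99423432-99423615), the gene for a phosphatase that switches off ERK. Its fold enrichment was 6.76 with set 1 (15 fragments) and 7.83 with set 2 (22 fragments), and AP-1 was found in its window. For AP-1 subunits the count was 2 of 21 (Atf3 and Fos), and for RUNX, TEAD, YAP and TAZ genes it was 7 of 64 (10.9%), with the strongest 10.9 kb upstream of Cbfb, the gene for the shared partner of the RUNX proteins, at 8.13 in set 1.

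For Wnt and Frizzled genes, 8 of 50 were members (16%), the strongest 204 kb from the receptor gene Fzd1 at 7.16 in set 2. For NF-kB and inflammatory genes the count was 5 of 65 (7.69%). The strongest was called with both sets 7.51 kb upstream of Csf2, the gene for GM-CSF (chr11:54257100-54257243), at 7.77 with set 1 (20 fragments) and 6.85 with set 2 (18 fragments). For interferon and innate RNA sensing genes it was 1 of 11 (Ifit1), and for genes of other lineages (neural, muscle and blood), kept as a check, 1 of 24 (Dlx2). Taken list by list, each Wilson interval included 14.6%, whereas the interval over the 14 lists together lay below it.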

How the data were processed

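FAIRE-seq was analysed in 4 libraries of EpRas cells, 1 list of regions per group. The authors trimmed reads to 36 bp, mapped them to mm10 with bowtie and called regions with MACS2 at q < 0.0001 (version 2.1.0 in the submitters' processing notes). The study's methods state 2 biological replicates for FAIRE-seq, also for this experiment at day 4, but whether each list used here combines them is not given in the sources used here. The deposited values are a fold enrichment (a ratio with a pseudocount of 1), -log10 p-values, -log10 q-values and an integer score, which was not used.

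From the deposited fold and p-value, the fragments over each summit and the local background were recovered. All summits outside the mitochondrial genome came out whole within 0.05. Depth was estimated from the lowest background, with an effective genome of 1.87 Gb. Recovery and merging were tested on simulated data. TSS were those of the GENCODE vM21 basic set. Motifs were sought in the 500 bp around the middle of a region. Shares carry 95% Wilson intervals. With 1 list per group no test was made, and the classes compared share libraries. Regions were named by rule: the 12 members of both sets with the highest lower fold enrichment, the 6 strongest of each set alone and the strongest member of each gene list. Of the regions that this rule names, 2 of set 1 alone are not reported here, but they are counted in the totals. Members and lists were chosen with earlier results of these data known. Python 3.11.15, numpy 2.4.6, pandas 2.3.3 and scipy 1.17.1 were used. The closing section gives the alternatives tried.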

Additional observations from a re-analysis of the deposited data

How the results depend on the processing

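Of 70 alternative values, 46 stayed close to the reported one. For a count this meant within 1.5 times, and for a motif ratio or the median distance within the 95% interval. For the strength of members, fragments at the summit replaced fold enrichment. Close there meant a difference below the spread of the members' fold enrichment. The 2274 members became 3676 with lists of equal length, 6106 when only the untreated control had to be free of a region and 677 with the set 2 library alone. The 206 members of both sets became 658 with lists of equal length, 380 when only the TGF-β control had to be free and 1280 when only the untreated control had to be. The median distance to a TSS became 16.1 kb when any gene was counted.

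The share of a motif in members was divided by its share in the other distal siEtv4/5 regions, which gave 0.716 for AP-1, 0.860 for ETS, 1.60 for CTCF, 0.927 for RUNX and 0.890 for TEAD. In the called region itself, the ratios were 0.654 for AP-1, 0.645 for ETS, 0.728 for RUNX and 0.689 for TEAD. Against the flanks at 5 kb, they were 4.66 for AP-1, 1.38 for ETS, 19.2 for CTCF, 1.23 for RUNX and 1.72 for TEAD. AP-1 and ETS thus turned from less to more frequent. RUNX and TEAD went from below to above 1, but their reported ratios had 95% intervals that included 1 (0.838 to 1.02 and 0.787 to 1.006). Against the regions called in all 4 libraries weighted to the fragments of set 1, the ratios were 0.758 for AP-1 and 1.01 for TEAD. That of exact CTCF was 0.984, and the members' interval (9.42%, 8.16 to 10.9) included the weighted share of 9.58%. The higher share of exact CTCF was thus not seen there. With up to 1 mismatch, CTCF stayed higher in members, at 26.7% against 22.1%. With weights for set 2, the ratios were 0.561 for AP-1, 0.974 for ETS, 1.85 for CTCF, 0.824 for RUNX and 1.08 for TEAD. The settings without chromosome 14, without repeat windows, with the full annotation and with a CTCF mismatch were chosen after seeing the data. Causes were not tested, beyond the change of the comparison itself. No paired analysis was possible because each group had 1 list. The depth bounds how weak a summit could be called, and a region missed in a control is not shown to be closed there.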

Other observations

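Regions near promoters were called only after knockdown less often than distal ones. Of 9007 merged siEtv4/5 regions within 2 kb of a TSS, 703 overlapped no control region, or 7.81% (95% Wilson interval 7.27 to 8.38), against 14.6% (14.03 to 15.1) of the distal regions. With both siRNA sets, 92 of the 703 were called, or 13.1% (10.8 to 15.8).

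Chromosome X, which the rule left out, had few distal siEtv4/5 regions. Of 106, 37 overlapped no control region, or 34.9% (26.5 to 44.4), and 1 of the 37 was called with both sets. Counted the other way, 89 of 158 distal control regions on chromosome X overlapped no siEtv4/5 region, or 56.3% (48.5 to 63.8), against 38.4% on the autosomes. Both shares on chromosome X were above those of the autosomes.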
